A study of Homo sapiens with 4 samples.

Results

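The cytochrome P450 (CYP), UDP-glucuronosyltransferase (UGT), sulfotransferase (SULT) and aldehyde dehydrogenase (ALDH) genes were described in drug-resistant colorectal cancer cells with and without added METTL14. A gene was taken where its symbol starts with CYP and a family number and letter, with UGT or SULT and a number, or with ALDH and a family number and letter. CYP24A1, CYP27B1, CYP51A1 and ALDH18A1 were left out. The rule found 106 of the 20323 gene rows, of which 54 were CYP, 22 UGT, 13 SULT and 17 ALDH genes. ALDH2 has no family letter and falls outside it.

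Cytochrome P450 enzymes insert oxygen into lipophilic molecules such as drugs, pollutants, fatty acids, sterols and retinoids. They take electrons from the reductase POR or, in mitochondria, from ferredoxin. Conjugating enzymes then attach glucuronic acid (UGT) or sulfate (SULT), which makes the products soluble enough to leave the cell, and ALDH enzymes oxidise reactive aldehydes to acids. In the gut these enzymes stand between the contents of the lumen and the body, and part of the set is switched on by the aryl hydrocarbon receptor AHR.

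Messenger RNA was measured by sequencing of poly(A) RNA in HCT-8, a line of human colorectal cancer cells, made resistant to the drug 5-fluorouracil. The METTL14 overexpression group (2 libraries) received a plasmid for METTL14, a subunit of the enzyme complex that places N6-methyladenosine on mRNA, and the control group (2 libraries) received a negative control plasmid. The cells of both groups were treated with cycloheximide, which blocks translation elongation, at 100 ug/mL, so no value comes from cells without it. The series states that the work was done in independent repeats, but no label ties a library to a repeat, so p-values measure the spread between these libraries, which may be technical.

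Library totals lay between 19206661 and 20161082 counts. METTL14 had 7593 and 8516 counts in the METTL14 overexpression libraries, against 472 and 598 in the controls, which fits the labels. Each of 9 markers of colorectal epithelium was above 1 CPM (a count scaled to library size) in both groups, although their summed level was 9378 and 9156 CPM with METTL14 and 18252 and 11916 CPM in the controls, mostly from KRT8 and KRT18. Of 12700 genes tested, 27% rose and 28.1% fell at an adjusted p below 0.05 by the quasi-likelihood test of edgeR, or 55.1% in either direction. A call is therefore the usual outcome for a gene in these data. Read counts cannot tell fewer RNA molecules in every cell from fewer cells that make them.

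Most of the enzyme genes were at or near 0 counts. No count was seen in any library for 34 of the 106 genes, and a further 33 had counts too low to be tested, at most 10 in a library for 31 of them. The other 39 passed the filter on low counts. Of these 39, 19 passed the test as higher with METTL14, 3 as lower, and 17 did not pass. In either direction this is 56.4% of those tested, beside 55.1% of all genes, so the share called was near the background. Split by direction, the share of all genes was 27% higher and 28.1% lower. The median log2 fold change was 0.46 over the 39 genes and -0.012 over all genes tested. Setting CYP3A7, absent from the controls, at its lower bound of 12.3-fold could not move this median, because that bound lies above it too. The filter favours higher genes where a gene passed it only with its METTL14 libraries. This is the case for CYP3A7, CYP4F3, CYP2E1, ALDH1A1, SULT2B1 and CYP21A2, of which CYP21A2 did not pass the test. The counts, shares and median therefore describe the tested genes and not the families. The METTL14 libraries both lay above both controls for 24 of the 39 and both below for 9, where 39.8% and 40% of all genes did so.

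Summed over the CYP genes, the level was 329.5 and 333.0 CPM in the METTL14 overexpression libraries, against 157.3 and 169.2 CPM in the controls, 2.03 times as high. The ALDH sum was 1856 and 1838 CPM with METTL14, against 1440 and 1516 CPM in the controls. The SULT sum was 105.2 and 96.8 CPM with METTL14 and 73.6 and 86.9 CPM in the controls, and the UGT sum was 68.1 and 69.8 CPM with METTL14 and 74.8 and 80.6 CPM in the controls. The groups did not overlap for any of the 4 sums, which is also the usual outcome for a single gene here. Over all genes tested, both METTL14 libraries lay above both controls for 39.8% and below for 40%. A few genes carry each sum, and ALDH3A1 with ALDH3A2 held 48.2 and 47.9% of all counts of the 106 genes with METTL14, against 40.2 and 43.3% in the controls.

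**Figure D1:**
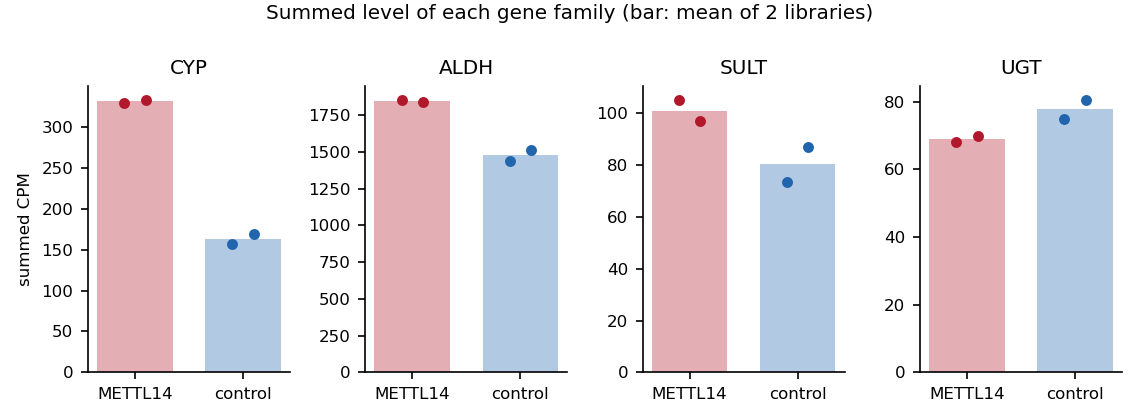
Summed CPM of the CYP, ALDH, SULT and UGT genes (y axis, starting at 0 in each panel) in METTL14 overexpression and control cells. Points are libraries and bars are means of 2. The CYP sum was near 330 CPM with METTL14 and near 163 CPM in the controls, while the UGT sum was lower with METTL14.

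CYP1A1 oxidises polycyclic aromatic hydrocarbons and is the best-known target of AHR. It had 436 and 479 counts in the METTL14 overexpression libraries, against 91 and 97 counts in the controls. Both METTL14 libraries lay far above both controls, and libraries of a group lay close together. The gene was 4.74-fold higher, with a log2 fold change of 2.24 (SE 0.149, edgeR adjusted p = 9.47e-05), and leaving out any library gave 2.21 to 2.28. Its relative CYP1B1, which also acts on aromatic hydrocarbons and on oestrogens, had 108 and 97 counts with METTL14 and 120 and 115 in the controls. That is a log2 fold change of -0.23 (SE 0.203), which did not pass the test (edgeR adjusted p = 0.362). CYP1A2, the liver member of this family, had a single count in the whole series. The CYP1A1 promoter is printed because this gene is the classical AHR target, with the letters GCGTG, the core of the element that AHR binds, in capitals where they occur on either strand. GCGTG occurred at position -57 from the transcript start:
CYP1A1 promoter, chr15:74725479-74725778, minus strand: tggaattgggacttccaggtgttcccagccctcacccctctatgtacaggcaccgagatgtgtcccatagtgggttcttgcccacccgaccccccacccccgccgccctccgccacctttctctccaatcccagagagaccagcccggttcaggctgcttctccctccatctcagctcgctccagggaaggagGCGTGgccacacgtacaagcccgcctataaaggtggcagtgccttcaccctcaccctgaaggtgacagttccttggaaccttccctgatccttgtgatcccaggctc

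Among the CYP2 genes, CYP2S1, a P450 found in epithelia outside the liver, was the most abundant. It had 1802 and 1894 counts with METTL14, against 976 and 838 in the controls, 1.99-fold higher, with a log2 fold change of 0.99 (SE 0.113, edgeR adjusted p = 0.00044). The groups were apart, and the call was kept under every alternative setting. CYP2E1, which oxidises ethanol and small solvents, had 11 and 12 counts with METTL14 and 2 and 0 in the controls. The ratio of these counts was 11.2, with a 95% exact interval of 2.77 to 98.1 that covers counting error only. It passed the test (log2 fold change 3.33, and 2.41 without control replicate 2, edgeR adjusted p = 0.0173), but not with DESeq2 (adjusted p = 0.0569) or without METTL14 overexpression replicate 2 (0.0563). On the exon map, 21.5% of its exon bases are shared with SYCE1, so its few counts are uncertain.

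The other CYP2 genes tested did not pass. CYP2U1, a fatty acid hydroxylase, had 197 and 223 counts with METTL14 and 102 and 166 in the controls (log2 fold change 0.61, edgeR adjusted p = 0.0632). Its controls differed from each other by more than the METTL14 libraries did, and the call appeared with limma-voom (adjusted p = 0.0492) and without control replicate 2, where the log2 fold change was 0.99. CYP2J2, an epoxygenase of arachidonic acid, had 74 and 101 counts with METTL14 and 68 and 100 in the controls, and these ranges overlap. CYP2R1, which makes 25-hydroxyvitamin D in the liver, had 159 and 177 counts with METTL14 and 178 and 198 in the controls (log2 fold change -0.20). Several drug-metabolising genes of the liver in this family stood at or near 0: CYP2C19 and CYP2A6 had no count, CYP2C8 had 0 and 0 counts with METTL14 and 1 and 1 in the controls, and CYP2B6 had 2 and 7 against 0 and 0. CYP2D6, another of them, had 6 and 1 counts with METTL14 and 3 and 6 in the controls.

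CYP3A4, the main drug-oxidising enzyme of adult liver and gut, had 0 and 1 counts with METTL14 and none in the controls. CYP3A7, the form of fetal liver, had 18 and 20 counts with METTL14 and 0 and 0 in the controls. Against a floor of 3 counts over the control group this is at least 12.3-fold higher, and the gene passed the test (edgeR adjusted p = 0.00209). Its readthrough gene CYP3A7-CYP3A51P, which shares 39.6% of the exon bases of CYP3A7, had 1 and 0 counts with METTL14 and 3 and 0 in the controls, so the zeros of CYP3A7 depend on how reads were divided between them. Summed, the pair had 19 and 20 counts with METTL14 against 3 and 0 (log2 fold change 3.56, SE 0.822, edgeR adjusted p = 0.00862). CYP3A5, the form that many people express outside the liver, had 52 and 57 counts with METTL14 and 38 and 42 in the controls, and did not pass the test (log2 fold change 0.41, SE 0.287).

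The 4 CYP4 genes that passed the filter were called higher, where 27% of all genes were. CYP4F3 passed the filter only with its METTL14 libraries, so the count says nothing of the family. CYP4 enzymes hydroxylate the end carbon of fatty acids and of lipid mediators. CYP4F3, which inactivates leukotriene B4, had 278 and 261 counts with METTL14, against 7 and 24 in the controls. The METTL14 libraries were alike and the controls were not, so the size of this rise is uncertain: log2 fold change 4.08 (SE 0.383, edgeR adjusted p = 0.000228), with 3.46 without control replicate 1 and 5.20 without control replicate 2. CYP4F12, a hydroxylase of arachidonic acid and some drugs, had 172 and 184 counts with METTL14, against 23 and 38 in the controls (log2 fold change 2.50, SE 0.271). CYP4F11, which acts on long-chain fatty acids and vitamin K, had 669 and 706 counts with METTL14, against 146 and 149 in the controls. It was 4.54-fold higher, with a log2 fold change of 2.18 (SE 0.127, edgeR adjusted p = 9.2e-05), with near-identical controls. CYP4V2, a fatty acid hydroxylase whose loss causes a crystalline retinal disease, had 1028 and 1048 counts with METTL14, against 366 and 495 in the controls, 2.35-fold higher (log2 fold change 1.23, SE 0.152).

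The 3 called CYP4F genes are neighbours on chromosome 19. On GRCh38 with the GENCODE annotation, CYP4F3 lies at chr19:15640897-15662825 and CYP4F12 at chr19:15672757-15697174, both on the plus strand, and CYP4F11 at chr19:15912367-15934867 on the minus strand. The cluster spans chr19:15508493-15934867 and its other coding CYP4F genes, CYP4F22, CYP4F8 and CYP4F2, had no count in any library. The olfactory receptor genes between them, OR10H2, OR10H3 and OR10H5, had none either, and OR10H1 had 1 and 1 counts with METTL14 and 0 and 1 in the controls. These genes are similar in sequence, and 9.9% of the 50-base runs of the longest CYP4F3 coding transcript also occur in another gene's transcripts, against 4.4% for CYP4F12 and 1.0% for CYP4F11. How reads of such runs were divided is not known, and the counts of CYP4F3 are the least certain of the 3.

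Promoters of 2 of these neighbours and of CYP4V2 are printed because these CYP4 genes were each called higher (RefSeq, GRCh38.p14, 250 bases before to 50 after the transcript start). CYP4F12 was not in the promoter table. Capitals mark GCGTG or TGACNNNGC, the core of the antioxidant element bound by NRF2, on either strand. No such letters were in the CYP4F3 window, 1 antioxidant match was in that of CYP4F11 (position -156), and CYP4V2 had an antioxidant match at -105 and GCGTG at +23:
CYP4F3 promoter, chr19:15641062-15641361, plus strand: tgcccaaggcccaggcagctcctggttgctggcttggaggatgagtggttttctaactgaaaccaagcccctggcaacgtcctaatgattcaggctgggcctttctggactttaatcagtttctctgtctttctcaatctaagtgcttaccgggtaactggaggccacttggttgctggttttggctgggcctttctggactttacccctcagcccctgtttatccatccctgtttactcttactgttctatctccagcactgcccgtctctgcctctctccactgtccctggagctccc
CYP4F11 promoter, chr19:15934818-15935117, minus strand: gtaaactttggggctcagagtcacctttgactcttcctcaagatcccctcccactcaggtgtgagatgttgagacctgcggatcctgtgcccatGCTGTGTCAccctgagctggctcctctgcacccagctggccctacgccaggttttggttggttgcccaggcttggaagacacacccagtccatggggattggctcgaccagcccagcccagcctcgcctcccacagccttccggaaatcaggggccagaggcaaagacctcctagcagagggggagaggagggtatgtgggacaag
CYP4V2 promoter, chr4:186191317-186191616, plus strand: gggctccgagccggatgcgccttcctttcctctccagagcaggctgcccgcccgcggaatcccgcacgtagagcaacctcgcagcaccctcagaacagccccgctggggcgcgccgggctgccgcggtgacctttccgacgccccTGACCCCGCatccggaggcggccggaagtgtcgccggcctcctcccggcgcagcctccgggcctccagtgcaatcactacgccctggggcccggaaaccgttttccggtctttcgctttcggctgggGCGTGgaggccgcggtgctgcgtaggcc

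Promoters were matched for 80 of the 106 genes. GCGTG was in 22 of the 80, and in 36.33% of all 27305 promoters of the table. TGACNNNGC was in 9 of the 80, and in 13.56% of all promoters. The direct repeat of AGGTCA with a spacer of 1 base, of the kind bound by the fatty acid receptor PPARA with RXR, was searched on both strands as well. It was in none of the 80 and in 0.02% of all promoters. Of the 15 genes called higher with a promoter in the table, 3 held GCGTG and 2 held TGACNNNGC. These windows hold only the sequence beside the start, and a match in letters is not a binding site.

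Among P450 enzymes of retinoids and sterols, CYP26B1, which degrades retinoic acid, had 1047 and 1062 counts with METTL14, against 577 and 680 in the controls (1.64-fold higher, edgeR adjusted p = 0.00208), with a log2 fold change of 0.71 (SE 0.118). Its relatives CYP26A1 and CYP26C1 had no count. CYP39A1, an oxysterol hydroxylase of bile acid synthesis, had 184 and 199 counts with METTL14 and 129 and 125 in the controls. It passed the test (log2 fold change 0.56, edgeR adjusted p = 0.0264), but not with DESeq2 (adjusted p = 0.0781) or when either METTL14 library was left out. CYP46A1, the cholesterol hydroxylase of brain, had 35 and 34 counts with METTL14 and 15 and 14 in the controls (log2 fold change 1.21, edgeR adjusted p = 0.0282), and its call was lost under the same settings (DESeq2 adjusted p = 0.113). CYP20A1, a P450 with no known substrate, had 104 and 138 counts with METTL14 and 144 and 188 in the controls and did not pass (log2 fold change -0.49, edgeR adjusted p = 0.0927), although it did without control replicate 1 (-0.66). CYP21A2, a steroid hydroxylase of the adrenal, had at most 15 counts in a library, and 44.3% of its 50-base runs are also in its pseudogene CYP21A1P. Several other genes of bile acid or steroid synthesis were at or near 0, with no count for CYP7A1, CYP8B1 and CYP17A1, and at most 9 counts for CYP19A1, the aromatase.

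**Figure D2:**
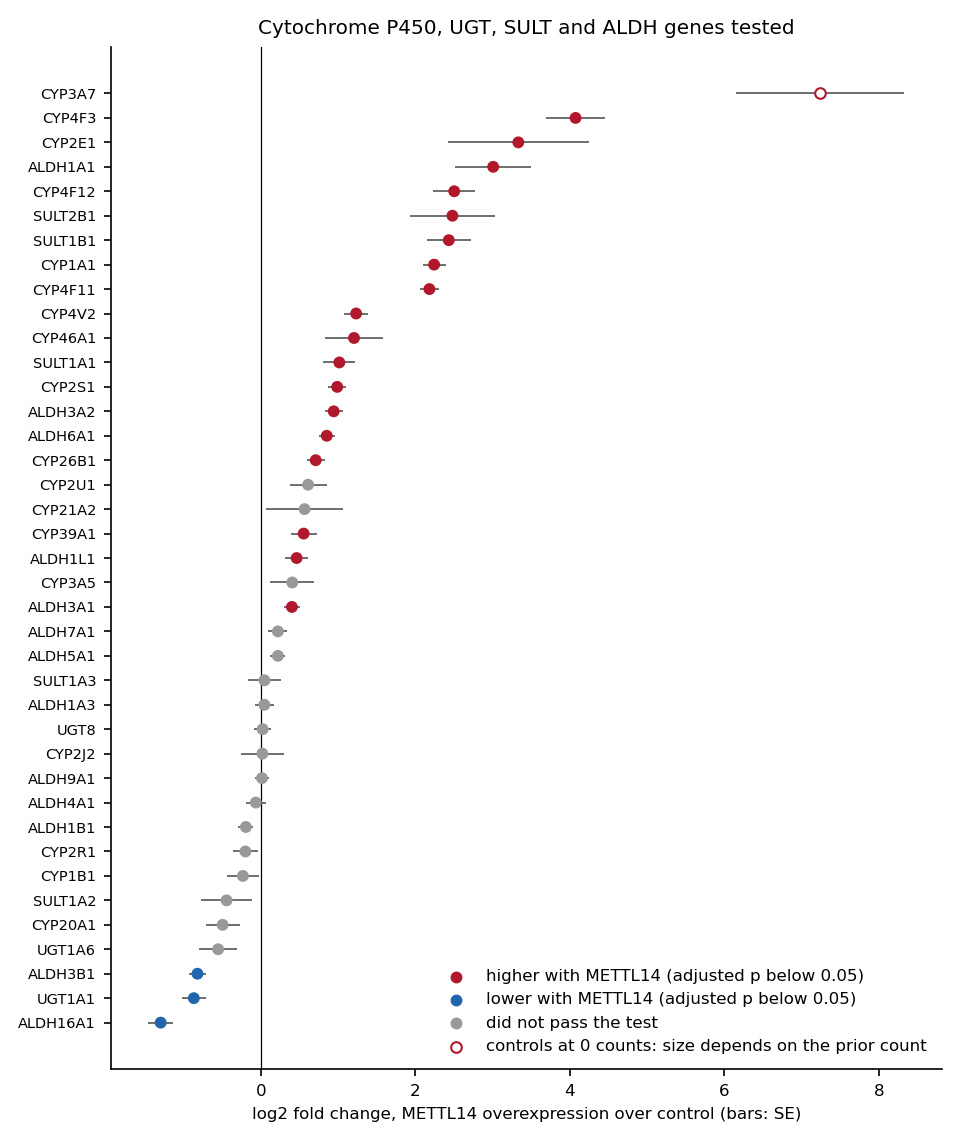
Log2 fold change of METTL14 overexpression over control for the 39 tested genes (x axis, bars are SE), sorted by size. The 19 genes higher with METTL14 run from ALDH3A1 at 0.40 to CYP4F3 at 4.08 and CYP3A7, drawn open because its controls had no count. The 3 lower genes are ALDH3B1, UGT1A1 and ALDH16A1.

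The ALDH genes had the highest summed level of these families, and 13 of 17 were tested, 5 were higher, 2 were lower and 6 did not pass. In either direction this is 53.8% of those tested, beside 55.1% of all genes, so the share called was near the background. ALDH1A1, among the 5, passed the filter only with its METTL14 libraries, so the count says nothing of the family. ALDH3A1, which oxidises aromatic and lipid-derived aldehydes, had 13799 and 14011 counts with METTL14, against 9622 and 10897 in the controls. The groups did not overlap and the rise was 1.32-fold (log2 fold change 0.40, SE 0.101, edgeR adjusted p = 0.0123), but the call rested on both METTL14 libraries (adjusted p = 0.169 without replicate 1 and 0.135 without replicate 2). ALDH3A2, the fatty aldehyde dehydrogenase of the endoplasmic reticulum, had 8349 and 8647 counts with METTL14, against 3879 and 4742 in the controls. It was 1.92-fold higher, with a log2 fold change of 0.94 (SE 0.117, edgeR adjusted p = 0.000589), and this call was kept under every alternative setting. The pair are neighbours on chromosome 17 (GRCh38), with ALDH3A2 at chr17:19648136-19677598 and ALDH3A1 at chr17:19737984-19748943. Between them SLC47A2, a drug exporter gene, had 3 and 11 counts with METTL14 and 2 and 13 in the controls.

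ALDH1A1, which makes retinoic acid from retinaldehyde and is widely used as a marker of tumour stem-like cells, was low in both groups. It had 28 and 40 counts with METTL14, against 4 and 4 in the controls (log2 fold change 3.01, SE 0.494, edgeR adjusted p = 0.00195). The relative ALDH1A3, which does the same reaction, was more abundant and had 467 and 520 counts with METTL14 and 488 and 443 in the controls, which overlap (log2 fold change 0.05, SE 0.124). ALDH1A2, the third of these enzymes, had 1 and 0 counts with METTL14 and none in the controls. ALDH1B1, a mitochondrial enzyme of acetaldehyde, had 2566 and 2566 counts with METTL14 and 2955 and 2766 in the controls, and did not pass the test (log2 fold change -0.19, edgeR adjusted p = 0.134). Without control replicate 2 it passed as lower (log2 fold change -0.25). ALDH1L1, the cytosolic enzyme that oxidises formyl-tetrahydrofolate, had 231 and 236 counts with METTL14 and 164 and 166 in the controls (log2 fold change 0.46, edgeR adjusted p = 0.035). Its call was lost with DESeq2 (adjusted p = 0.107) and without either METTL14 library.

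Of the enzymes of amino acid and amine breakdown, ALDH6A1 was higher and the others did not pass. ALDH6A1, of valine and thymine breakdown, had 1314 and 1337 counts with METTL14, against 702 and 728 in the controls (1.81-fold higher, edgeR adjusted p = 0.000502), with a log2 fold change of 0.85 (SE 0.102). Some of its exon bases overlap those of BBOF1. ALDH7A1, of lysine breakdown, had 2807 and 2947 counts with METTL14 and 2138 and 2678 in the controls and did not pass (log2 fold change 0.22, SE 0.122), although it did without control replicate 2 (0.38). ALDH4A1, of proline breakdown, had 1680 and 1696 counts with METTL14, inside the range of the controls at 1925 and 1515 (log2 fold change -0.06), and passed as lower without control replicate 2 (-0.24). ALDH5A1, which clears succinic semialdehyde from GABA, had 1383 and 1497 counts with METTL14 and 1174 and 1234 in the controls (log2 fold change 0.22, SE 0.0961, edgeR adjusted p = 0.0872), and passed when either control was left out. ALDH9A1, of carnitine synthesis, had 2441 and 2704 counts with METTL14 and 2452 and 2508 in the controls (log2 fold change 0.02).

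Both lower ALDH genes kept their calls under every alternative. ALDH16A1, an unusual form that lacks the catalytic cysteine in humans, had 411 and 370 counts with METTL14, against 1051 and 820 in the controls. It was 2.46-fold lower, with a log2 fold change of -1.30 (SE 0.159, edgeR adjusted p = 0.000572). Of its exon bases, 10.5% are shared with PIH1D1 and with another row under the symbol ALDH16A1. The counts of that other row were not added, so the division of reads between the rows is uncertain. ALDH3B1, which oxidises lipid aldehydes at membranes, had 634 and 619 counts with METTL14, against 1126 and 1032 in the controls (log2 fold change -0.82, SE 0.113, edgeR adjusted p = 0.000926). Its 2 relatives named above, ALDH3A1 and ALDH3A2, had log2 fold changes of the other sign. The 4 ALDH genes too low to test, ALDH1A2, ALDH1L2, ALDH3B2 and ALDH8A1, had at most 9 counts in a library.

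**Figure D3:**
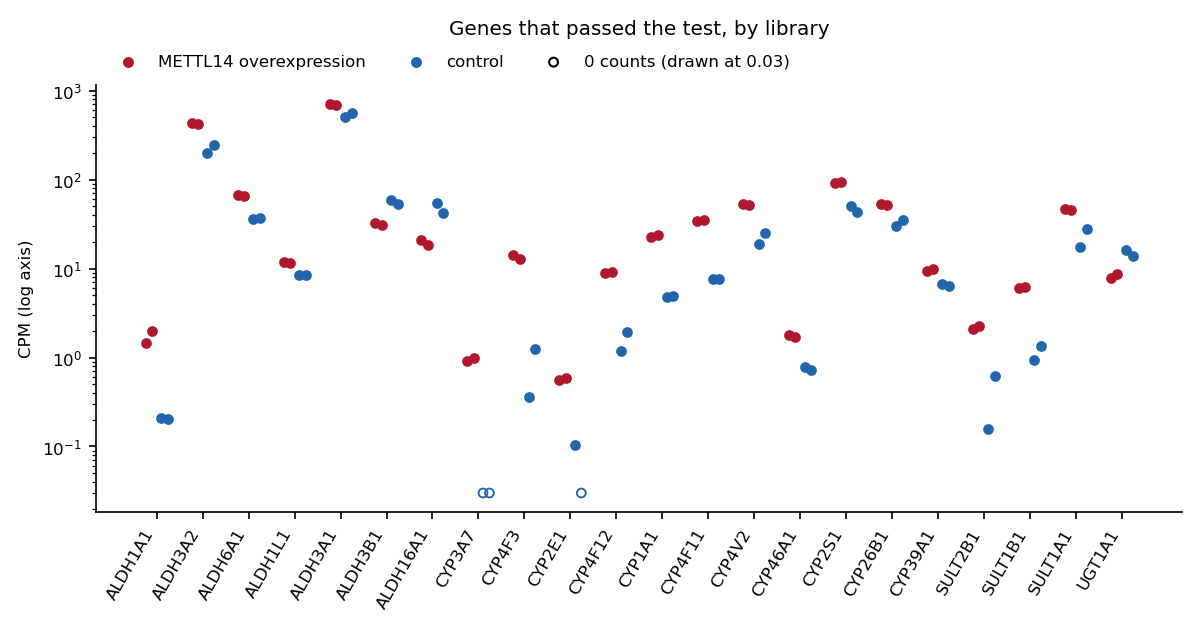
CPM in each library (log axis) of the 22 genes that passed the test, by family. Filled points are libraries, and open points stand for a library with 0 counts. The groups do not overlap in any of the 22 genes, but these were picked by a test on the same libraries. Groups were also apart in 11 of the 17 tested enzyme genes that did not pass. Of all genes tested, 39.8% had both METTL14 values above the controls and 40% had both below. The controls of CYP4F3 and SULT2B1 lie far apart.

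Among sulfotransferases, 5 of 13 were tested, 3 were higher and none was lower (edgeR). That is 60% of those tested, beside 55.1% of all genes in either direction. SULT2B1, among the 3, passed the filter only with its METTL14 libraries, so the count says nothing of the family. SULT1B1, an intestinal form that acts on thyroid hormones and phenols, had 119 and 126 counts with METTL14, against 18 and 26 in the controls (5.41-fold higher, edgeR adjusted p = 0.000471), with a log2 fold change of 2.43 (SE 0.284). SULT2B1, which sulfates cholesterol and hydroxysteroids, had 41 and 46 counts with METTL14, against 3 and 12 in the controls. The low and uneven controls make its size uncertain, with a log2 fold change of 2.48 (SE 0.549), of 1.83 without control replicate 1 and of 3.76 without control replicate 2. SULT1A1, the main phenol sulfotransferase, had 912 and 918 counts with METTL14, against 336 and 547 in the controls (log2 fold change 1.02, SE 0.206, edgeR adjusted p = 0.00483). A part of its sequence, 24.7% of its 50-base runs, also occurs in SULT1A3 and other relatives, and the sum of the 3 rows of SULT1A1 and SULT1A2 was higher too (0.89, SE 0.204). SULT1E1 and SULT6B1 had no count, and SULT2A1, which sulfates adrenal steroids, had 2 and 0 counts with METTL14 and none in the controls. The SULT2B1 promoter (GRCh38.p14) is printed as the one with the most GCGTG matches among the 15 promoters of genes that were higher, at -219 and -90:
SULT2B1 promoter, chr19:48551922-48552221, plus strand: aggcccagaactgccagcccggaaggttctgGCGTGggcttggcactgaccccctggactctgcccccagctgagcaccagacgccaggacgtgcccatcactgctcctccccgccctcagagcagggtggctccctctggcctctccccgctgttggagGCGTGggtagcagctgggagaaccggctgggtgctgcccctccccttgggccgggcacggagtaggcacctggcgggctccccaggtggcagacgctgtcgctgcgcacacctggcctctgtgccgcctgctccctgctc

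SULT1A3 and SULT1A4, which sulfate dopamine and other catecholamines, are near-identical copies on chromosome 16, and 98.6% of the 50-base runs of SULT1A3 occur in other genes. SULT1A3 had 927 and 823 counts with METTL14 and 1009 and 643 in the controls. SULT1A4 had 3 and 10 counts with METTL14 and 5 and 399 in the controls, so that only control replicate 2 held reads of this copy in number. Summed, the copies had 930 and 834 counts with METTL14 and 1014 and 1042 in the controls, so that both METTL14 libraries lay below both controls, and the difference did not pass the test (log2 fold change -0.26, SE 0.116, edgeR adjusted p = 0.098). For SULT1A3 alone the log2 fold change was 0.05, and it was 0.43 without control replicate 1 and -0.25 without control replicate 2, both past the threshold. The division of reads between the copies moved with this library, and its part in those values was not tested.

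Of 22 UGT genes, 3 were tested, and of these 1 passed as lower and none as higher. That is 33.3% of those tested, beside 55.1% of all genes in either direction. With 3 genes tested, the count says nothing of the family. UGT1A1, the enzyme that conjugates bilirubin, had 153 and 174 counts with METTL14, against 308 and 273 in the controls, 1.82-fold lower, with a log2 fold change of -0.87 (SE 0.158, edgeR adjusted p = 0.00312). UGT1A6, which conjugates small phenols, had 99 and 81 counts with METTL14 and 108 and 150 in the controls and did not pass (log2 fold change -0.55, edgeR adjusted p = 0.0944), although it did without control replicate 1 (-0.75). UGT1A3, a hepatic form, had 0 and 0 counts with METTL14 and 18 and 7 in the controls, at least 8.55-fold lower against a floor of 3 counts over the METTL14 group. It was below the filter on low counts, and with every gene kept it passed as lower (edgeR adjusted p = 0.00689). The UGT1A genes are built from separate first exons joined to shared later exons (UGT1A1 at chr2:233760248-233773299 on GRCh38), and 49.9% of the exon bases of UGT1A1 belong to other UGT1A genes too. Summed over the 9 UGT1A genes, which avoids this division, there were 261 and 265 counts with METTL14, against 444 and 440 in the controls. The locus was lower (log2 fold change -0.79, SE 0.127, edgeR adjusted p = 0.00182), with replicates nearly equal in both groups. UGT8, which makes galactosylceramide rather than glucuronides, had 1063 and 1146 counts with METTL14 and 991 and 1127 in the controls, which overlap. Of the 10 UGT2 genes, which conjugate steroids and bile acids, 8 had no count and UGT2B7 and UGT2B10 had at most 3 counts in a library.

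**Figure D4:**
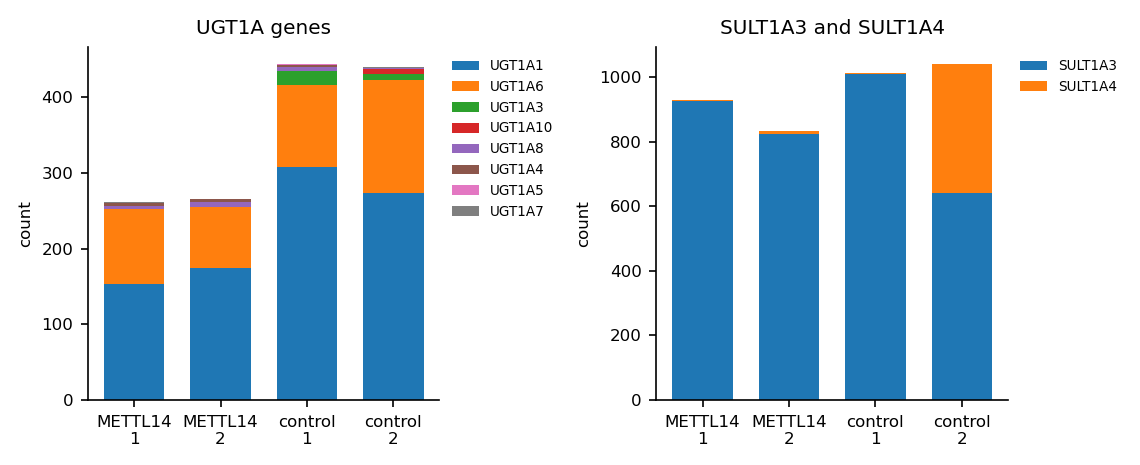
Counts per library (y axis) of genes that share sequence, stacked by gene, for the UGT1A genes (left) and for SULT1A3 with SULT1A4 (right). The UGT1A sum is 261 and 265 with METTL14 and 444 and 440 in the controls. Control replicate 2 gives 399 counts to SULT1A4, but its SULT1A3 and SULT1A4 sum, 1042, is close to that of control replicate 1.

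Levels were compared between genes as CPM per kilobase of the longest protein-coding transcript. ALDH3A1 stood first in both groups, with a mean of 364 CPM per kilobase with METTL14 and 275 in the controls, followed by ALDH3A2 with 109 and 56.7. ALDH9A1 (48.0 with METTL14 and 47.5 in the controls) and ALDH1B1 (42.2 and 48.2) came next, and their ranges over the 4 libraries overlap. CYP2S1 was the highest P450, at a mean level of 33.4 with METTL14 and 16.9 in the controls, place 5 of 39 with METTL14 and place 9 in the controls. CYP4F11 stood at place 16 with METTL14 and 24 in the controls, CYP1A1 at 17 and 26, and CYP4F3 at 25 and 36. Of 38 pairs of neighbours in the order over all libraries, 35 had overlapping ranges, so the order is firm only at the top. It depends on the length used: with merged exons in place of the longest transcript the first places, ALDH3A1 and ALDH3A2, were unchanged, and ALDH7A1 moved to place 12 against place 6.

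The genes that serve these enzymes did not move as a block. Of 123 partner genes in 5 lists, 94 were tested, 30 were higher, 26 lower and 38 did not pass (59.6% called, beside 55.1% of all genes), with a median log2 fold change of 0.01. By direction, 27% of all genes tested were higher and 28.1% lower. Among 13 genes of electron supply and haem, 3 were higher and 6 lower (69.2% called). POR, which passes electrons to the P450 enzymes of the endoplasmic reticulum, had 4327 and 4261 counts with METTL14, against 2857 and 2337 in the controls (log2 fold change 0.69, SE 0.125). ALAS1, the first enzyme of haem synthesis, was higher too (0.56), while PGRMC1, a haem-binding partner of P450 enzymes (-0.49), and HMOX2, which breaks down haem (-0.50), were lower.

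Of 16 tested receptors and regulators, 8 were higher and 2 lower (62.5% called, beside 55.1% of all genes). PPARA, the fatty acid receptor that drives Cyp4a genes in rodent liver, had 4653 and 4961 counts with METTL14, against 847 and 1129 in the controls (log2 fold change 2.25, edgeR adjusted p = 9.2e-05). ARNT, the partner of AHR, was higher (0.70), as were AHRR, a repressor that AHR itself induces (0.87), and, named after its value was seen, AHR (0.48). TIPARP, from the same list and also named after its value was seen, did not pass (0.17, edgeR adjusted p = 0.294). NFE2L2, which encodes NRF2, was lower (-0.53). The xenobiotic receptors PXR and CAR (NR1I2 and NR1I3), which drive CYP3A and CYP2B genes in liver, were near 0, with at most 2 counts in a library.

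Of 17 tested genes that supply or remove glucuronic acid and sulfate, 5 were higher and 6 lower (64.7% called, beside 55.1% of all genes). The lysosomal sulfatase ARSA (log2 fold change 1.65) and the extracellular sulfatase SULF2 (1.07) were higher, while SLC35B1, a nucleotide transporter of the endoplasmic reticulum (-0.64), and the steroid sulfatase STS (-0.86) were lower. Of 33 other oxidoreductases and hydrolases, 12 were higher and 8 lower (60.6% called). EPHX1, the microsomal epoxide hydrolase, had 11936 and 11967 counts with METTL14, against 5133 and 4929 in the controls (1.21), AKR1B10, an aldo-keto reductase of retinaldehyde, was higher (1.78), and the short-chain reductases DHRS2 (-4.75) and CBR3 (-1.43) were lower. ALDH2, named after its value was seen, had 3407 and 3394 counts with METTL14, against 2245 and 2419 in the controls (0.51, edgeR adjusted p = 0.00379). Of 15 other conjugating enzymes, 2 were higher and 4 lower (40% called). Among these were the glutathione transferases GSTK1 (0.63), GSTP1 (-0.69) and GSTM4 (-0.42) and the acetyltransferase NAT1 (-1.07).

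**Figure D5:**
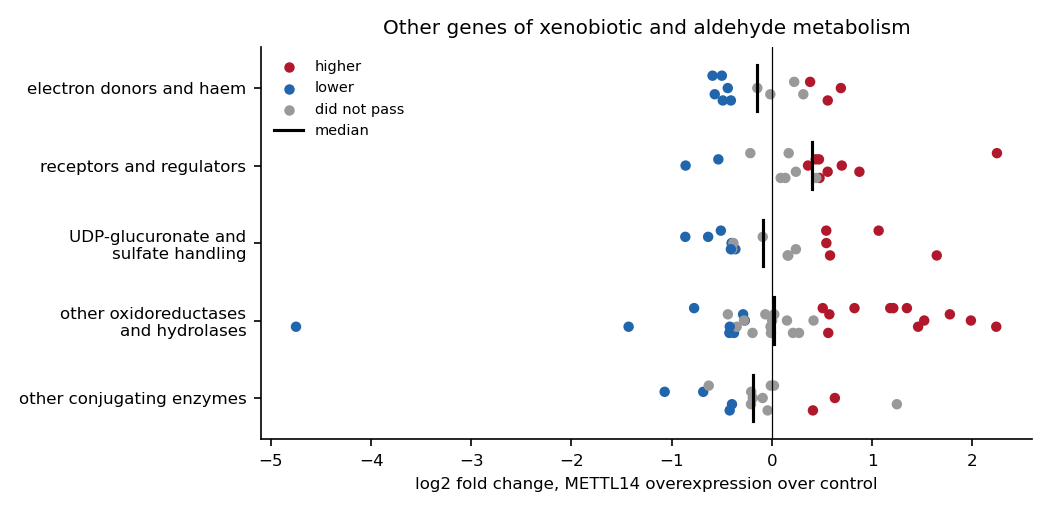
Log2 fold change of METTL14 overexpression over control (x axis) for the 94 tested partner genes in 5 lists. Each point is a gene, coloured by its test, and the black line is the list's median, from -0.19 for other conjugating enzymes to 0.40 for receptors and regulators. Each list holds genes of both directions.

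Many of these enzymes are best known from liver, and hepatocyte markers were looked at beside them. Of 13 such markers 2 reached 1 CPM in each group and 5 were at 0 in every library. ALB had 1 and 1 counts with METTL14 and 1 and 2 in the controls, and APOB, TTR, FGA and FGB had none. The summed level was 174 and 171 CPM with METTL14 and 36.1 and 39.6 CPM in the controls, nearly all from SERPINA1 with 3294 and 3373 counts with METTL14 and 641 and 698 in the controls. Summed fibroblast markers were 20.2 and 18.3 CPM with METTL14 and 13.3 and 16.2 CPM in the controls, leukocyte markers 3.70 and 4.94 CPM against 2.29 and 2.62 CPM, and endothelial markers 1.90 and 1.53 CPM against 0.99 and 0.41 CPM. Their part in the results was not tested, and CD3E, TYROBP and KDR had no count.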

How the data were processed

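The 4 libraries were grouped by their labels. The submitters' processing notes name fastp, Bowtie2, HISAT2, StringTie and RSEM and the build hg18. No versions and no strand setting are given in the sources used here, so genes that overlap on opposite strands may share reads. What the authors deposited is a table of expected counts, not normalized, of which 10.8 to 11.6% were not exactly whole. These were rounded. Of the 20323 rows, 20171 have an identifier in GENCODE release 29 (GRCh38), so the build behind the counts is unclear. Positions, exon overlap and transcript length are those of GENCODE, and promoters come from RefSeq. Rows with no symbol (102) held at most 0.0366% of counts. Where a symbol had several rows, the row with the highest mean count was used.

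Genes were tested over all 12700 rows that passed filterByExpr (minimum count 10) in edgeR 4.0.16 (R 4.3.3) with TMM scaling and robust quasi-likelihood fits, with Benjamini-Hochberg adjustment over all of them and a threshold of 0.05. CPM uses TMM-scaled library sizes. SE is approximate (size of the log2 fold change over the root of F). At 2 against 2, the lowest p of an exact permutation test is 0.333, so p-values rest on the spread shared over genes. Replicates differed by more than sampling noise (chi-square per degree of freedom 3.29 with METTL14, 28.8 in the controls). The fit was tested on simulated data. Other settings tried were limma-voom (limma 3.58.1), DESeq2 1.42.0, its size factors in edgeR, library totals, every gene kept, a minimum of 5 CPM, the replicate number as a block, glmTreat against 1.5-fold, leaving out each library and, chosen after seeing the data, sums of genes that share exons. Intervals and floors (3 counts) cover counting error only. Python 3.11.15 with scipy 1.17.1 was used otherwise.

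The genes and lists were chosen with earlier results of these data known. Each tested gene could be named, library by library. In a partner list the 4 with the smallest p were named, and others are said to be chosen after their values were seen. Beside these, genes at or near 0 were named as examples.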

Additional observations from a re-analysis of the deposited data

How the results depend on the processing

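Under each alternative that could be fitted, 12 of the 19 genes called higher, 2 of the 3 called lower and 9 of the 17 not called kept their direction or their side of the threshold. Apart from glmTreat, which asks for a change beyond 1.5-fold, 14 of 19 and 3 of 3 kept their calls. The exceptions were CYP2E1, CYP46A1, CYP39A1, ALDH1L1 and ALDH3A1. SULT1A3 passed as lower without control replicate 2 (-0.251) and as higher without control replicate 1 (0.428). The count of higher enzyme genes was 19, and 14 to 22 when a library was left out, and that of lower ones was 3, and 3 to 6. Over all genes tested, 18.3 to 35.2% were higher and 18.1 to 35.9% lower in those fits. With glmTreat 13 and 2 of them were called, 1416 and 1357 of all genes against 3429 and 3569, and 11 and 2 partner genes against 30 and 26. Leaving out a library gave 2305 to 4553 lower genes over the transcriptome and 8 to 33 lower partner genes, the low counts being those without a METTL14 library, whose spread then comes from the controls alone. Leaving 1 library in a group assumes that it varies like the other group.

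With the replicate number as a block, 20 enzyme genes were higher and 4 lower, beside 3797 higher (29.9%) and 3903 lower (30.7%) genes in all. The numbers gave no sign of pairing the libraries, although this cannot exclude a pairing. Differences between replicates 1 and 2 in the METTL14 group and in the controls correlated at 0.044 over genes. CYP2U1 (adjusted p = 0.00652) and CYP20A1 (0.0484) gained a call under the block. Of the 33 genes with counts below the filter, 1 was called with every gene kept (UGT1A3, lower).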
